A study of Mus musculus with 3 samples.

Results

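Gamma-delta (γδ) T cells of 4T1 breast tumors were picked out of sorted tumor leukocytes by their transcripts. A cell was taken as a γδ T cell when it held at least 1 UMI (unique molecular identifier, a tag that marks each captured transcript once) of Trdc, at least 1 UMI of Tcrg-C1, Tcrg-C2 or Tcrg-C4, at least 1 UMI of Cd3d, Cd3e or Cd3g, and none of the natural killer (NK) cell genes Ncr1 and Eomes. This gate found 69 γδ T cells among 12472 kept cells, with 24 of 3820 cells in the vehicle library, 29 of 4793 in the p38i library and 16 of 3859 in the p38KO library. The cells were thus selected on the counts of these 9 genes, which are described and not tested.

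Single-cell RNA sequencing was performed on live CD45+ cells sorted from primary tumors at day 14 after implantation of 200000 tumor cells into the fourth mammary fat pad of female BALB/c mice, which were 6 to 8 weeks old at implantation. All 3 groups received 4T1-luc cells, a luciferase-marked line of BALB/c mammary carcinoma. The vehicle group was given DPBS and the p38i group the p38 inhibitor LY2228820 at 30 mg/kg by daily gavage, both for 10 days from day 4. The p38KO group carried 4T1-luc cells in which p38α (Mapk14) had been inactivated with CRISPR-Cas9. These cells were the single clone H9, the immune cells of that group kept their own Mapk14, and its treatment label reads NA. Tumors of 3 mice were pooled into 1 library per group, so the groups have no replicate library, and a difference between them cannot be told apart from a difference between libraries or, for p38KO, between clones. Libraries shared 6, 5 and 9 cell barcodes in pairs, and none of the shared barcodes was a γδ T cell.

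γδ T cells carry a T cell receptor made of a γ and a δ chain in place of the α and β chains of conventional T cells. In the mouse, one branch of them is set up in the thymus to make interleukin 17 and depends on Sox13 and Blk among others, and another makes interferon γ and kills target cells with tools shared with NK cells. In tumors, the first branch is known for drawing in neutrophils and the second for attacking tumor cells.

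The γ chain constant genes are printed here because they define the gate and differ in one short part, the connecting peptide between the immunoglobulin-like domain and the membrane. The exons of this part are in capitals and 15 bases of the neighbouring exons in lower case, as spliced, on GRCm38 with GENCODE M21. Tcrg-C1 has 45 such bases at chr13:19215864-19215908 on the plus strand, Tcrg-C2 has 30 at chr13:19305769-19305798 on the minus strand, and Tcrg-C4 has 99 in 2 exons within chr13:19349536-19350374 on the plus strand.
Tcrg-C1: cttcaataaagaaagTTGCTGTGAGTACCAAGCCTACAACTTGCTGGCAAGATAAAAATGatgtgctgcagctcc
Tcrg-C2: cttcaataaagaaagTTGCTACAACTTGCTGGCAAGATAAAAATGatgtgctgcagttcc
Tcrg-C4: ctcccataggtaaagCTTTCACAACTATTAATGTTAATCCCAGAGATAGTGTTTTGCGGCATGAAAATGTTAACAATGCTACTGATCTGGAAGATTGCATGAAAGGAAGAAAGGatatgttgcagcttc
Outside that part Tcrg-C1 and Tcrg-C2 are near copies, with 97.3% of 330 bases of the first coding exon identical, against 82.1% for Tcrg-C1 and Tcrg-C4. Of the 50-base windows in the last 500 transcript bases of Tcrg-C1, 29.0% also occur in Tcrg-C2 and 0% in Tcrg-C4. The split of reads between Tcrg-C1 and Tcrg-C2 is therefore uncertain, and their counts are best read together.

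The same set of cells is marked on the δ side by Trdc (chr14:54142851-54148868, plus strand), the single δ constant gene, and in part by Trdv4 (chr14:54074905-54075515, plus strand), the variable segment of the chain known as Vδ1. Trdv4 is printed because its detection differed between libraries. The last 90 of its 345 coding bases, chr14:54075426-54075515, end at the site of joining, and the capitals mark the codons for the Tyr-Tyr-Cys that closes the framework before the junction.
Trdv4: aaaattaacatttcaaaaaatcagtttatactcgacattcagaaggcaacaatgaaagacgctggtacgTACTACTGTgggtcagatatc

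Each library's γδ T cells were summed into 144839 UMIs for vehicle, 135546 for p38i and 98501 for p38KO, and levels are given as CPM, the counts of a gene scaled to the sum of its library and group. The median γδ T cell held 5277, 3961 and 4982 UMIs and 1843, 1620 and 2020 detected genes in that order, so those of p38i were the shallowest. Trdc gave 282, 244 and 101 UMIs, or 1947, 1800 and 1025 CPM. Tcrg-C1 was detected in 20 of 24, 23 of 29 and 15 of 16 cells, Tcrg-C2 in 12, 15 and 11, and Tcrg-C4 in 16, 17 and 7. Cd3e, which encodes a signalling chain of the receptor complex, was found in 24, 26 and 16 of them.

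The gate removed most Trdc-positive cells. Trdc was detected in 95, 108 and 96 kept cells, of which 35, 44 and 31 also had a Tcrg-C gene and 34, 40 and 27 a Cd3 gene. NK cells, taken as cells with Ncr1 and no Cd3 gene, had a Trdc UMI in 36.9% of 111, 38.5% of 109 and 29.3% of 140 cells, whereas granulocytes, which should lack it, had one in 0.0649%, 0.159% and 0.293%, at median depths of 2603, 2371 and 2285 UMIs. No granulocyte passed the gate when its Cd3 term was dropped. At its edge, 1, 2 and 2 γδ T cells had a single Trdc UMI, while 2, 2 and 5 cells were kept out by a single UMI of Ncr1 or Eomes and 8, 9 and 6 by more. A further 15, 15 and 18 cells with Trdc and a Cd3 gene had no Tcrg-C gene.

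γδ T cells made up 0.628% of kept cells in the vehicle library (exact Clopper-Pearson 95% interval 0.403 to 0.933), 0.605% in p38i (0.406 to 0.868) and 0.415% in p38KO (0.237 to 0.672). Among cells with a Cd3 gene the shares were 3.02%, 3.07% and 2.05%, and the γδ T cells with Cd3e were 3.97%, 3.57% and 2.63% of Cd3e-positive cells. These intervals overlap and cover counting error only, so no difference in abundance was detectable at this depth. The order of vehicle and p38i turned to 0.393% and 0.501% when the gate was applied after thinning to 1500 UMIs, and to 0.419% and 0.459% without cells that held α-β transcripts.

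Transcripts of other cell types were present within the gate and were not even across libraries. Trac was found in 7, 6 and 5 γδ T cells, and 8, 7 and 4 had Trac together with Trbc1 or Trbc2, or had Cd4 or Cd8b1. Trbc2 by itself was found in 19, 27 and 14, so β constant transcripts were common while Trac summed to 15, 11 and 9 UMIs. Foxp3 was at 0 in all 69. Of 10 granulocyte markers, 7, 9 and 10 were detected in the summed γδ T cells, at 649, 5784 and 6020 CPM, led by S100a8 at 200.2 CPM in vehicle and by S100a9 at 2899 and 3421 CPM in the others. Other Cd3e-positive cells, with all 10 detected, carried 4910, 11106 and 3617 CPM of the same markers. In vehicle Csf3r, Cxcr2 and Hdc were at 0 and in p38i G0s2. Of 12 monocyte and macrophage markers 9, 11 and 11 were detected, at 1622, 1815 and 9401 CPM, led by Ccr2, Ly6c2 and, at 4883 CPM, Apoe, with the macrophage marker Adgre1 at 0 in each library. Of 10 dendritic cell markers 4, 7 and 3 were detected, at 124, 1099 and 7208 CPM, led by Cd74 at 62.1, 642 and 5167 CPM, with Ccl22 and Fscn1 at 0 throughout. These sums differed between libraries by far more than the lymphoid ones. NK markers (6, 5 and 3 of 11 detected) summed to 104, 309.9 and 213 CPM, led by Klre1, Prf1 and Klra7, with Klra8 and Klra4 at 0. B cell markers (3, 3 and 2 of 8) summed to 75.9, 110.7 and 244 CPM, led by Cd79b in vehicle and Ighm in the others, with Ms4a1 and Pax5 at 0. Mast cell markers (0, 1 and 3 of 8) summed to 0, 29.5 and 81.2 CPM with Cpa3 and Ms4a2 at 0. Tumor epithelial markers (1, 1 and 2 of 8) summed to 20.7, 95.9 and 30.5 CPM, led by Krt18 in vehicle and Lcn2 in the others, with Krt8 at 0, and type 2 innate lymphoid markers (3, 1 and 1 of 10) to 48.3, 44.3 and 30.5 CPM, led by Gata3, with Il1rl1 and Il13 at 0. The part of these transcripts in the results was not tested beyond the leave-outs given with them. At least 4 of 10 myeloid markers were found in 2, 3 and 4 γδ T cells, and counts of genes without those cells are given with each comparison.

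The comparison with other Cd3e-positive cells asked which transcripts set γδ T cells apart from the remaining T cells of the same tumors, of which there were 581, 703 and 592. The 3 libraries served as pairs. γδ T cells had less of Trac and of several costimulator and inhibitory receptor genes. Foxp3 was not detected in them and could only come out lower. Listed genes of the interleukin 17 branch summed higher in γδ T cells, but some could be tested through those cells alone and are described below. With edgeR's quasi-likelihood test and adjusted p under 0.05 over 9489 genes, 38 were higher (0.400% of those tested, 4 of them gate genes) and 86 lower (0.906%), 1.31% in all. These p-values measure the spread between 3 pools. Without the p38KO library the counts were 14 and 23, and without the γδ T cells that had myeloid transcripts 95 and 332.

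The 10 listed type 17 genes summed to 1008, 362 and 995 CPM in γδ T cells and to 7.92, 12.1 and 17.9 CPM in other Cd3e-positive cells. Of the 10, 7 had enough counts to be tested, some through the γδ T cells alone, so the number called is not given as support. Blk, a Src family kinase of B cells and of γδ T cells that make interleukin 17, gave 207, 44.3 and 193 CPM in γδ T cells (vehicle, p38i, then p38KO) and 0, 0.268 and 0 CPM in other Cd3e-positive cells. With almost no counts in the other cells, Blk passed the count filter through the γδ T cells and had to differ. Its fitted log2 fold change was 9.73 ± 0.79 (SE, 3 libraries), given as a description. Cd163l1, which encodes the scavenger receptor family protein SCART1, gave 518, 140 and 102 CPM against 1.02, 0.268 and 0 CPM. The same limit holds for its fitted log2 fold change of 8.88 ± 0.46. In both genes the lowest γδ T cell value lay far above the highest of the other cells. Its neighbour 5830411N06Rik, the SCART2 gene, gave 55.2, 66.4 and 508 CPM against 2.56, 2.95 and 3.25 (fitted log2 5.55 ± 0.57). 5830411N06Rik was likewise too low in the other cells to pass the filter there. Its side was thus fixed, and its fitted value is a description. The transcription factor Sox13 and the interleukin 1 receptor Il1r1 were lower in level, with 22 and 17 UMIs over all γδ T cells. Their fitted log2 fold changes were 8.42 and 5.01. In other Cd3e-positive cells Sox13 was at 0 CPM in vehicle and 0.268 CPM in p38i. Sox13 thus also passed the filter through the γδ T cells, and its fitted value is no measure of size. The call for Sox13 rested on the vehicle library and that for Il1r1 on p38KO. Ccr6 was not called, and transcripts of the cytokine itself were scarce, with Il17a in 1, 1 and 0 γδ T cells and Il17f in none of the 69.

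Some genes often found beside this program were also higher. Of 22 tested, 8 were higher and none lower, with a median log2 fold change of 0.54 beside -0.09 for all genes tested. The 8 include Aqp3, which was at 3.32 and 3.76 CPM in other Cd3e-positive cells of vehicle and p38i. Aqp3 passed the count filter through the γδ T cells, so the number called is not given as support. Serpinb1a, an inhibitor of granulocyte proteases, was at 283, 111 and 193 CPM in γδ T cells and at 13.0, 14.2 and 17.1 CPM in other Cd3e-positive cells, an 11.7-fold difference (edgeR adjusted p = 8.69e-06). Tmem176a and Tmem176b, a pair of adjacent genes for intracellular membrane proteins, were 8.26-fold and 8.11-fold higher. The groups did not overlap for any of these genes. Actn2, Il17re (a chain of the interleukin 17C receptor), the water channel Aqp3, Zbtb16 (the PLZF factor of innate-like T cells) and the leukotriene B4 receptor Ltb4r1 were higher by log2 values of 3.06, 4.35, 3.69, 3.17 and 2.22, and those 5 calls did not hold without p38KO. Trgv2, a γ variable segment, was 4.03-fold higher and was also lost without that library. The integrin chain Itgb7 and the activation and retention marker Cd69 were higher by log2 values of 0.83 and 0.94, 2 of 10 tested residency genes, with calls that did not hold without p38KO, and for Itgb7 without p38i or for Cd69 without vehicle. Cd7 stood out from its list, since it was 6.90-fold higher at 214, 1114 and 609 CPM against 86.4, 67.6 and 68.6, while 7 of the 24 tested genes associated with type 1 immunity were lower, and its call did not hold without p38KO. Ramp1, Emb, S100a6 and Crip1 completed the leading genes, with log2 values from 1.27 down to 0.66 that were lost without p38KO.

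Among the lists, those of the α-β lineage and of costimulators had the largest shares of lower genes apart from the 3 type 2 innate lymphoid markers. Of 7 α-β T cell genes 5 were lower. Trac gave 104, 81.2 and 91.4 CPM against 749, 670.0 and 693 CPM, a log2 fold change of -3.09 ± 0.22 (edgeR adjusted p = 1.95e-07). Foxp3, the factor of regulatory T cells, had 0 UMIs in γδ T cells and 951 in the others and was at least 10.6-fold lower, taking 3 counts over the γδ T cells as the floor. Ccl1, a chemokine for Ccr8, was at least 26.4-fold lower at 0 against 75.9, 145 and 416 CPM. Foxp3 and Ccl1 passed the count filter through the other cells alone and could only come out lower, so their calls are descriptions. Tnfrsf4 (OX40), a costimulator of activated T cells, was at 0, 22.1 and 0 CPM against 383, 432 and 435 CPM, a log2 fold change of -5.87 ± 0.46 (edgeR adjusted p = 5.39e-07). Those values were separate in each library. Of 11 costimulators and TNF receptors 5 were lower, Cd28, Tnfrsf18, Tnfrsf9 and Tnfsf11 being the others, and of 12 inhibitory receptors Ctla4 (log2 -4.13), Lag3 (-3.12) and Entpd1 (-1.84) were lower. Pdcd1, in contrast, was not called, at 228, 118 and 203 CPM against 188, 172 and 125 CPM (log2 0.01 ± 0.26).

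Of 10 type 1 and cytotoxic genes 3 were lower and none higher, with a list median of -0.65. The gate left out cells with Ncr1 or Eomes, and those of them with Cd3e counted among the other Cd3e-positive cells. Eomes was at 23.3 CPM in the other cells of vehicle and 21.5 CPM in those of p38i. The groups thus differ in selection on NK genes, and its part in the lower type 1 values was not tested. Gzmb, a granzyme, was at 117, 177 and 142 CPM against 822, 469 and 375 CPM (4.13-fold lower, edgeR adjusted p = 1.40e-04). Ifng was at 0, 22.1 and 0 CPM against 102, 117 and 111 CPM, and Gzma was 5.99-fold lower. The chemokines Ccl3 and Ccl4 were 7.97-fold and 9.17-fold lower, and the calls for Ifng, Gzma and Ccl3 did not hold without p38KO. Nkg7 and Ccl5 were not called, with log2 values of -0.83 and -0.47 and edgeR adjusted p of 0.0647 and 0.239. Among 15 tested genes of receptor signalling, Cd5 (8.29-fold) and Cd6 (9.12-fold), both brakes on the receptor, and Cd2, Cd28, Lck and Thy1 were lower. Blk alone was higher, with the limit given above. Other lists had few calls. Of 18 cell cycle genes Birc5, Hmgb2 and Ube2c were lower, of 11 recirculation genes none was called, and of 13 genes of the p38 pathway none was called. Of 14 cytokine genes Csf1, Csf2, Ifng, Ccl3 and Ccl4 were lower, of 18 cytokine receptors Il17re and Il1r1 and of 13 chemokine receptors Ltb4r1 were higher, and Hspa1a of 17 stress genes, Ifi27l2a of 15 interferon response genes and Gapdh of 15 glycolysis genes were lower. None of the 10 granulocyte, 11 monocyte and macrophage, 5 dendritic, 3 B cell, 1 mast cell and 1 epithelial markers tested was called, while Gzma and Klre1 of 6 NK markers and Gata3 and Il1rl1 of 3 type 2 innate lymphoid markers were lower. Mapk14 itself was at 13.8, 36.9 and 20.3 CPM in γδ T cells and 37.8, 38.6 and 33.1 CPM in other Cd3e-positive cells (log2 -0.80 ± 0.48, edgeR adjusted p = 0.670). Of the 67 named calls, 19 held with each library left out in turn, among them Serpinb1a, Tmem176a, Tmem176b, Trac, Tnfrsf4, Tnfrsf18, Ctla4, Lag3, Gzmb, Cd5 and Cd6. Cd163l1, Blk and 5830411N06Rik were also among the 19, but passed the count filter through the γδ T cells alone. Foxp3 and Ccl1 were among them too, but had 0 counts in γδ T cells and could only come out lower. The calls for Ccl1, Lag3, Ccl4 and Cd8b1 did not hold with no block, nor that for Ccl4 by DESeq2's Wald test.

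**Figure D1:**
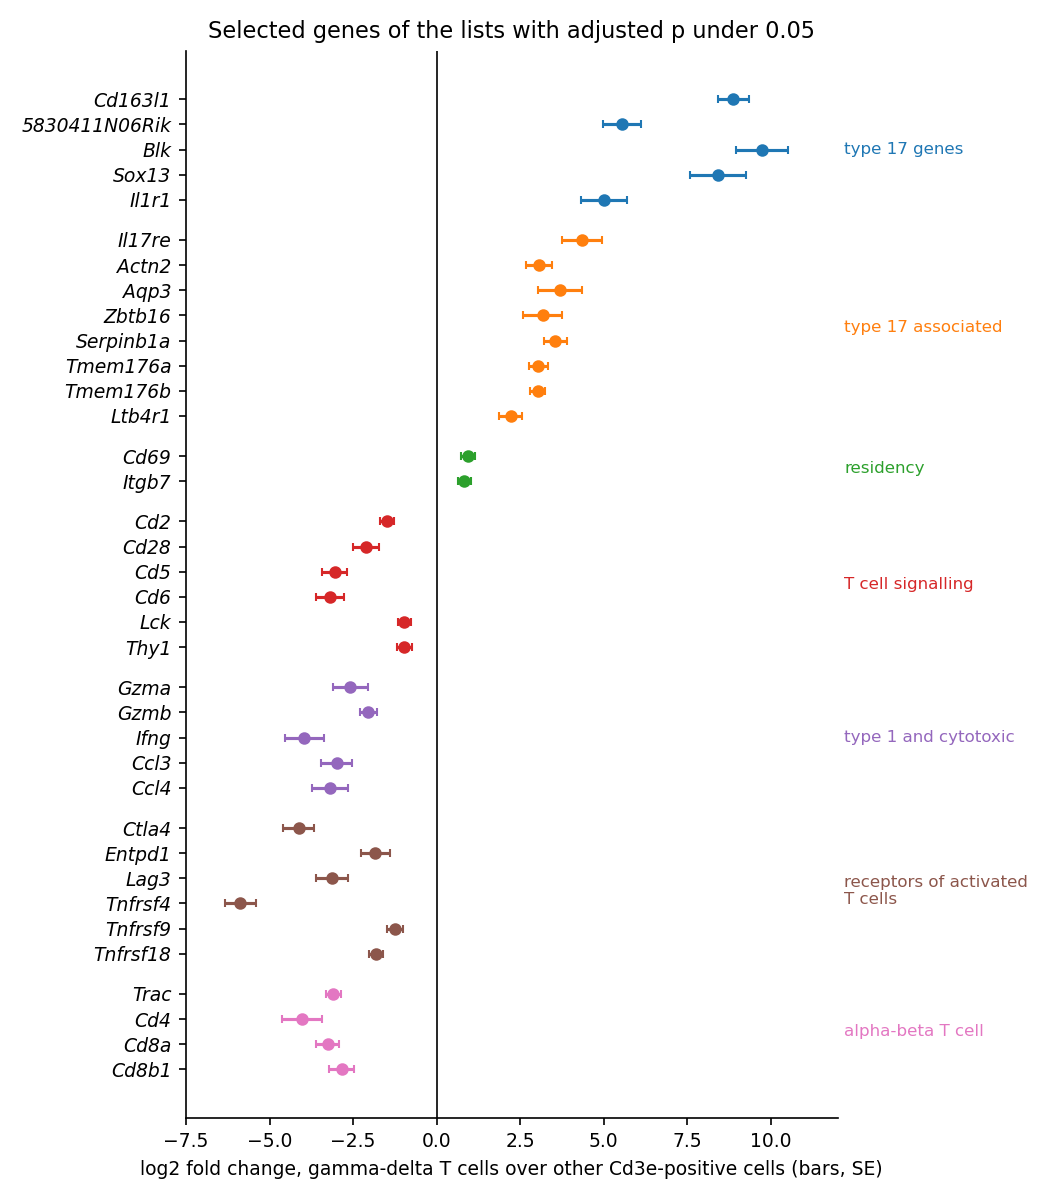
Log2 fold change of γδ T cells over other Cd3e-positive cells for a selection of the list genes called by edgeR, with points for the estimate and bars for its SE over 3 libraries. Type 17 genes lie to the right of 0, between 5.01 for Il1r1 and 9.73 for Blk. Those too low in the other cells to pass the count filter there, Blk and 5830411N06Rik among them, passed it through the γδ T cells, which fixed their side. The genes shown from the type 1, receptor signalling, activation and α-β lists were picked among the lower ones and lie to the left, down to -5.87 for Tnfrsf4. Blk, also on the receptor signalling list, is shown with the type 17 genes, and Cd7, higher on the type 1 associated list, is not shown.

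NK cells also held Trdc transcripts and share killer genes with γδ T cells, so the same test was made against the 111, 109 and 140 NK cells. γδ T cells had higher levels of Il7r and Cxcr6, and far lower levels of Gzma and Gzmb. Cd163l1 and 5830411N06Rik were not detected in NK cells, and Pdcd1 and Bcl11b were too low there to pass the count filter. All of these passed it through the γδ T cells, which fixed their direction. Of 13 tested genes of CD3 and receptor signalling outside the gate, Blk, Cd247 and Lat were higher and 0 lower, with a list median of 0.34 beside -0.00055 for all genes tested. Of 5365 genes 92 were higher (1.71%) and 92 lower (1.71%), 3.43% in all, with 7 and 2 of them gate genes. Without the p38i library 62 were higher and 45 lower, and without the γδ T cells that held α-β transcripts 61 and 69. Without those that had myeloid transcripts 170 were higher and 261 lower.

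Cd163l1 had 104 UMIs in γδ T cells and 0 in NK cells (at least 216-fold higher), and 5830411N06Rik had 67 against 0 (at least 139-fold). The 10 listed type 17 genes had 0, 2 and 0 UMIs in NK cells, so the 5 that could be tested passed the count filter through the γδ T cells and had to differ, and the other 5 were not tested. The 24 associated genes summed to 6014, 3586 and 4751 CPM in γδ T cells and to 1823, 1456 and 1669 CPM in NK cells. Pdcd1, the inhibitory receptor PD-1, was at 228, 118 and 203 CPM against 4.74, 0 and 12.1 CPM (fitted log2 4.91 ± 0.49). Bcl11b, a factor that fixes T cell identity, was at 221, 155 and 203 CPM against 11.1, 3.04 and 5.59 (fitted log2 4.86). Both passed the count filter through the γδ T cells, so these fitted values are descriptions. Il7r, the receptor for a survival cytokine, and Cxcr6, a chemokine receptor of tissue T cells, were 13.4-fold and 10.0-fold higher. No library of one cell type reached the other for these 4 genes. The receptor adaptor Lat, Ly6a, the factors Ikzf2 and Maf, and Ltb4r1 were higher by log2 values of 3.04, 3.00, 2.67, 2.18 and 2.61, while the call for Gbp2b (2.18) did not hold without p38i.

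On the lower side were 7 of 9 type 1 and cytotoxic genes and 6 of 7 NK markers that neither gate used. Gzma gave 6.90, 66.4 and 0 CPM in γδ T cells against 5119, 5531 and 3505 CPM in NK cells (log2 -7.63 ± 0.48, edgeR adjusted p = 5.81e-07). Gzmc was lower still in ratio, at 0, 7.38 and 10.2 CPM against 1982, 2624 and 5204 CPM (fitted log2 -9.14). Gzmd and Serpinb9b, an inhibitor of granzyme M, were at 0 in γδ T cells and at least 39.0-fold and 21.7-fold lower. Gzmc, Gzmd, Serpinb9b and the genes below at 0 or 1 UMI in γδ T cells passed the count filter through the NK cells. That fixed their side. Perforin (Prf1) was 11.4-fold lower and Gzmb 10.2-fold. Smaller differences were found for Ccl5 (3.51-fold), Nkg7 (2.48-fold) and Klrd1 (2.07-fold), where the call for Nkg7 did not hold without p38KO and that for Klrd1 without p38KO or p38i. Klrg1 and Maff were at 0 in γδ T cells and at least 5.12-fold and 4.86-fold lower, Spp1 (osteopontin) 29.5-fold, Car2 18.9-fold and Klre1 19.7-fold lower. Cma1, Gzmf and Itga2 had 1 UMI each in γδ T cells. The calls for Klrg1, Maff, Gzmf and Itga2 did not hold without p38i. Of the 67 named calls with a value in any leave-out, 39 held with each library left out in turn. Pdcd1, Bcl11b, Gzmc and Gzmd are among them, with the limit on the count filter given above.

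**Figure D2:**
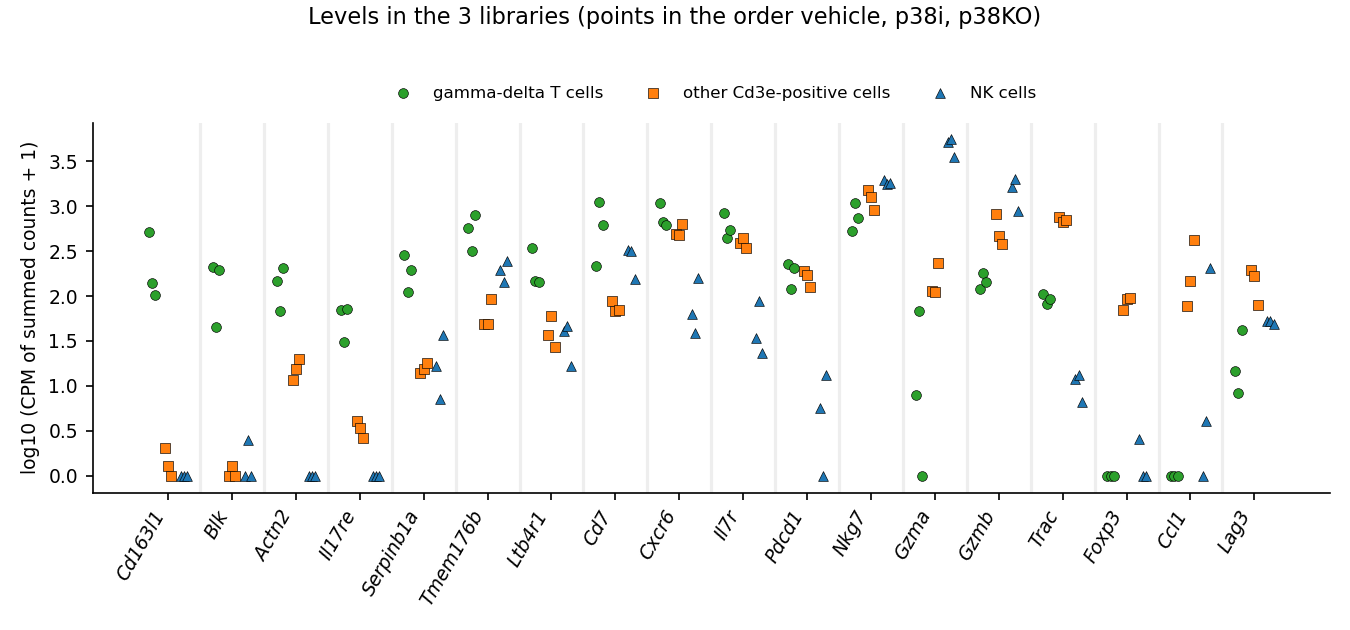
Level of 18 genes as log10 of CPM plus 1 in summed γδ T cells, other Cd3e-positive cells and NK cells, with 1 point per library in the order vehicle, p38i, p38KO. Cd163l1, Actn2 and Il17re are at 0 in NK cells and, for Cd163l1, at 518, 140 and 102 CPM in γδ T cells, while Gzma reaches 5119, 5531 and 3505 CPM in NK cells.

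Within the 69 cells, some were led by type 17 genes and more of them by type 1 genes. A cell was called led by type 17 genes when at least 2 of the 10 listed genes were detected and more of them than of the 10 type 1 and cytotoxic genes, and the reverse. Type 17 genes led 9 of 24 γδ T cells in vehicle (37.5%, exact interval 18.8 to 59.4), 6 of 29 in p38i (20.7%, 7.99 to 39.7) and 8 of 16 in p38KO (50%, 24.7 to 75.3). Type 1 genes led 13, 20 and 7 cells (54.2%, 69.0% and 43.8%), and 2, 3 and 1 cells fell in neither class. The intervals overlap between libraries. Of the 63 cells in a class, 8 were separated by a margin of 1 gene, and 33 of the 69 held at least 1 gene of each list. After every cell was thinned to 1500 UMIs, type 17 genes led 7, 1 and 6 cells and type 1 genes 10, 21 and 6.

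**Figure D3:**
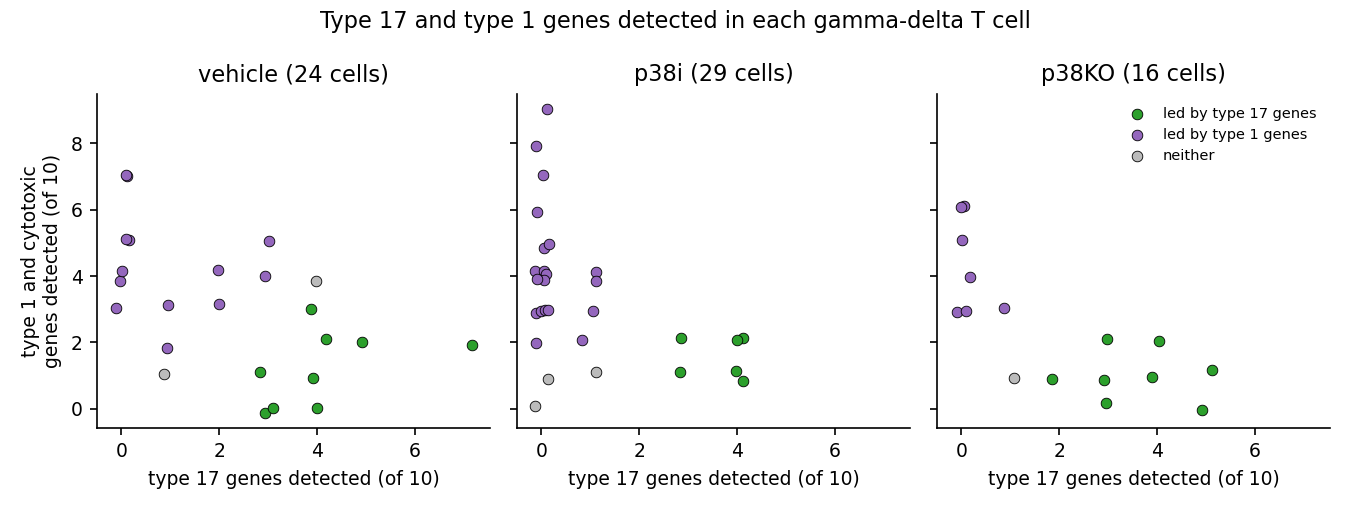
Number of type 17 genes (horizontal) and of type 1 and cytotoxic genes (vertical) detected in each γδ T cell, 1 panel per library, with points shifted slightly to show overlaps. Cells led by type 17 genes (9, 6 and 8) lie along the lower right and those led by type 1 genes (13, 20 and 7) along the upper left.

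The class genes made the classes and carry no test. As a description, Ccl5 summed to 0 UMIs in cells led by type 17 genes and 529 in those led by type 1 genes, Nkg7 to 0 and 295, and Klrd1, a partner chain of NK receptors, to 1 and 150. Of the type 17 genes, Blk was found in 18 of 23 and 2 of 40 cells, Sox13 in 15 and 1, and Cd163l1 in 14 and 8. Cd163l1 thus crossed the classes more than Blk or Sox13 did.

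Other genes that differed between the classes were tested with the libraries as pairs. Of 816 tested genes 10 were higher in cells led by type 17 genes (1.23%) and 16 lower (1.96%), 3.19% in all, 2 and 3 of them class genes. Without the p38i library 19 genes were higher, and without the cells that held α-β transcripts 2 were higher and 3 lower. Without the cells with myeloid transcripts 9 were higher and 12 lower, and Maf, Tmem176a, Lgals1 and Ramp1 lost their calls.

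Maf, a factor needed by interleukin 17 γδ T cells, was at 1057, 1400.2 and 1025 CPM in cells led by type 17 genes and at 442, 19.6 and 19.0 CPM in those led by type 1 genes (log2 3.09 ± 0.66, edgeR adjusted p = 0.0215). Capg, an actin-capping protein, was at 1409, 1322 and 1397 CPM against 299, 353 and 419 CPM (log2 1.82 ± 0.28, edgeR adjusted p = 0.00243). Tmem176b and Tmem176a were 4.55-fold and 4.33-fold higher, the latter with a call that did not hold without p38KO. Ranges of the classes were apart for these genes. The chemokine receptors Ccr2 (3.28-fold) and Cxcr6 (2.97-fold), Ramp1 (2.76-fold) and the galectin Lgals1 (2.32-fold) were also higher. Of these calls, that for Ccr2 did not hold without p38KO, that for Cxcr6 without p38i, that for Lgals1 without vehicle or p38KO and that for Ramp1 without any of the libraries.

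Markers of myeloid cells were compared between the classes as sums, with no test. The 10 granulocyte markers summed to 385, 7547 and 4684 CPM in these cells and to 352, 428 and 5076 CPM in those led by type 17 genes, with S100a9 the most abundant in each. The 12 monocyte and macrophage markers summed to 1112, 2169 and 16584 CPM against 1022, 739 and 1234 CPM, and the 10 dendritic cell markers to 85.6, 1423 and 13404 CPM against 70.5, 156 and 140 CPM. The gap was thus wide in p38i and p38KO and small in vehicle, while granulocyte markers in p38KO were similar in both classes. In p38KO the monocyte and dendritic sums were led by Apoe at 9101 CPM and Cd74 at 9596 CPM. Almost all UMIs of these genes came from 1 cell, as given below, so those sums do not describe the class. In p38i 1 cell held 78.2% of the Cd74 UMIs and 58.0% of the S100a9 UMIs of γδ T cells. At least 4 myeloid markers were found in 1, 3 and 2 of the cells led by type 1 genes and in 0, 0 and 1 of the others.

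In the cells led by type 1 genes, Ly6c2 had 140 UMIs and Plac8 114, with 0 in the other class (at least 26.1-fold and 21.2-fold). Both thus entered the test through the cells led by type 1 genes and could only come out lower in the other class. The number of lower genes given above includes such genes. Ly6c2 is itself on the monocyte list, and Fcer1g, Tyrobp, Plac8 and Ifitm2 are also transcribed in myeloid cells. Fcer1g, a signalling adaptor of NK receptors and of Fc receptors, was at 228, 1472 and 1485 CPM in cells led by type 1 genes against 0, 0 and 93.1 CPM. In the direction of type 17 over type 1 its fitted log2 fold change was -4.96 ± 0.56. Fcer1g was too low in cells led by type 17 genes to pass the count filter there. That fixed its side, so the fitted value is a description. Its partner adaptor Tyrobp was 25.9-fold and Ctla2a 23.4-fold lower in cells led by type 17 genes. Without the cells that had myeloid transcripts the calls for Tyrobp and, with the limit just given, Fcer1g held at an edgeR adjusted p under 0.05. Ly6c2, Plac8 and Ifitm2 then had too few counts to be tested. Lck, the kinase that starts receptor signalling, was at 35.2, 0 and 0 CPM in cells led by type 17 genes and at 371, 304 and 438 CPM in the other class (fitted log2 -4.54 ± 0.70). Lck passed the count filter through the cells led by type 1 genes alone, so its side was fixed and the value is a description. Cd7 was 10.0-fold, Ifitm2 11.8-fold and Peli1 5.25-fold lower in cells led by type 17 genes, and these 3 calls did not hold without vehicle. The receptor genes Trdc, Tcrg-C1, Tcrg-C2 and Tcrg-C4 chose the cells and carry no test, and as a description they differed by log2 values of 0.67, 0.51, 0.57 and 0.25. Without the cells that held α-β transcripts, 10 of the 12 named genes still tested lost their call, Maf, Tmem176b, Ly6c2 and Cd7 among them, and Capg and Lgals1 kept theirs. The calls for Maf, Tmem176b, Ccr2, Ramp1, Lgals1 and Ifi27l2a did not hold with no block, and those for Ccr2, Ramp1, Lgals1, Ifitm2, Peli1, Thy1 and Ifi27l2a did not by DESeq2's Wald test.

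The makeup of the γδ T cells by library was described next, with no test since each group has 1 library. Trdv4, Cd163l1 and 5830411N06Rik are given in detail and were chosen after their values were seen. Trdv4 was found in 12 of 24 γδ T cells of vehicle (50%, exact interval 29.1 to 70.9), 9 of 29 of p38i (31.0%, 15.3 to 50.8) and 0 of 16 of p38KO. The exact upper limit for 0 of 16 is 20.6%, and the floor of 3 counts allows a share of up to 18.8%, both limits on cells with a UMI and not on cells expressing the gene. The UMIs were 32, 25 and 0. The intervals of vehicle and p38KO did not overlap at the cells' own depth. Thinned to 1500 UMIs, Trdv4 was found in 4 (16.7%, 4.74 to 37.4), 5 (17.2%, 5.85 to 35.8) and 0 cells, so at equal depth the intervals overlapped and vehicle was no longer above p38i. Outside the gate it was seen in 11, 11 and 13 kept cells, of which 9, 5 and 10 were NK cells and none a granulocyte, so the p38KO library did hold Trdv4 transcripts.

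Cd163l1 (chr7:140218267-140231145, plus strand) and 5830411N06Rik (chr7:140247284-140300736, plus strand) are neighbours separated by 16138 bases and share no 50-base stretch of transcript, so their reads can be told apart. Cd163l1 was found in 15 of 24 (62.5%), 7 of 29 (24.1%) and 2 of 16 (12.5%) γδ T cells, with 75, 19 and 10 UMIs, 9 of the last 10 in 1 cell. 5830411N06Rik was found in 4 (16.7%), 2 (6.90%) and 9 (56.3%), with 8, 9 and 50 UMIs. The vehicle library was thus high for the first and low for the second, p38KO the reverse, and p38i low for both. In CPM the p38KO to vehicle ratio was -2.35 on the log2 scale for Cd163l1 (95% interval -3.47 to -1.39, counting error only) and 3.20 for 5830411N06Rik (2.11 to 4.49). For p38i it was -1.89 (-2.69 to -1.14) and 0.27 (-1.28 to 1.84). After thinning, Cd163l1 was found in 10, 2 and 2 cells and 5830411N06Rik in 3, 1 and 7, in the same direction between vehicle and p38KO but with overlapping intervals, while for Cd163l1 p38i (6.90%) then lay below p38KO (12.5%). Outside the gate Cd163l1 was seen in 4, 1 and 0 kept cells and 5830411N06Rik in 3, 5 and 4, each with a Cd3 gene, and neither in a granulocyte.

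**Figure D4:**
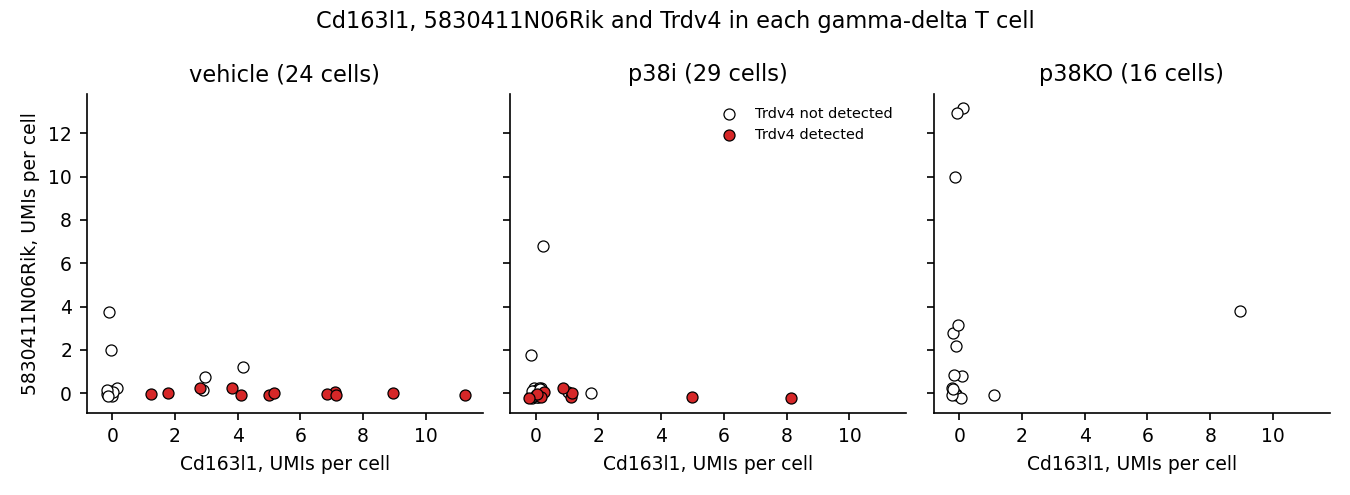
UMIs of Cd163l1 (horizontal) and 5830411N06Rik (vertical) in each γδ T cell, 1 panel per library, with points shifted slightly to show overlaps and in red where Trdv4 was detected. The vehicle cells spread along the Cd163l1 axis, 12 of them red, and the p38KO cells along the 5830411N06Rik axis, with 0 of 16 red.

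Among cells led by type 17 genes, a class that uses Cd163l1 and 5830411N06Rik but not Trdv4, vehicle and p38KO differed the same way. Cd163l1 was found in 8 of 9, 5 of 6 and 1 of 8 such cells, 5830411N06Rik in 3 of 9, 1 of 6 and 8 of 8, and Trdv4 in 6 of 9, 5 of 6 and 0 of 8. Blk and Sox13 were present in all 3 libraries, with Blk in 8, 4 and 6 and Sox13 in 5, 5 and 5 of them. Across libraries, 17 of the 21 cells with Trdv4 had Cd163l1 and 0 had 5830411N06Rik. Both scavenger receptor genes were found together in 3 of 69 cells. Of the 15 cells with 5830411N06Rik, 13 also had Tcrg-C2, whereas 8 of the 24 with Cd163l1 did, with the doubt given above on reads shared by Tcrg-C1 and Tcrg-C2. Tcrg-V6, the γ segment known to pair with Vδ1, gave 1 UMI in each of 4, 2 and 0 cells, and 5 of these 6 cells also had Trdv4. Cells of a library share a pool of mice and are not replicates.

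**Figure D5:**
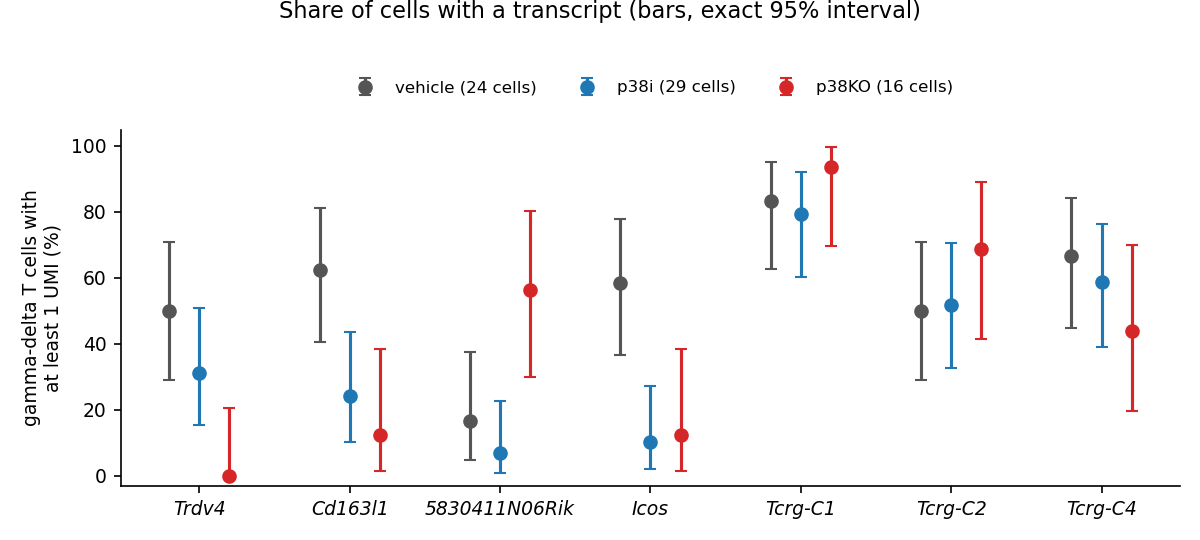
Share of γδ T cells with at least 1 UMI of 7 genes in each library, with exact Clopper-Pearson 95% intervals as bars. Trdv4 and Cd163l1 are highest in vehicle (50% and 62.5%) and 5830411N06Rik in p38KO (56.3%), while the intervals of the Tcrg-C genes overlap.

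A few other genes of the lists are given as values, chosen after these were seen. Of the costimulators with 50 or more UMIs over both libraries, 0 of 3 differed by 2-fold between p38i and vehicle, and of the cytokine receptors 0 of 5. Between p38KO and vehicle 1 of 3 costimulators was lower (Tnfrsf9) and 1 of 5 cytokine receptors higher (Il2rb). Over all genes with 50 or more UMIs, 8.43% differed by at least 2-fold in p38i and 12.6% in p38KO. Icos, a costimulator, was found in 14 of 24 γδ T cells of vehicle, 3 of 29 of p38i and 2 of 16 of p38KO, with 37, 7 and 2 UMIs. Other Cd3e-positive cells showed no such difference, at 244, 263 and 241 CPM. Among cells led by type 1 genes it was found in 6 of 13, 0 of 20 and 0 of 7. Il2ra, the interleukin 2 receptor chain, gave 23, 7 and 2 UMIs and the nuclear receptor Rora 35, 17 and 4, against 106, 139 and 130 CPM and 106, 112 and 128 CPM in other Cd3e-positive cells. Itgae (CD103), which holds T cells in epithelium, ran the other way at 1, 27 and 19 UMIs in 1, 10 and 7 cells. In other Cd3e-positive cells Itgae was at 29.1, 46.9 and 120.1 CPM. Dusp1, a phosphatase that switches off p38, gave 15, 1 and 8 UMIs beside 157, 61.2 and 87.0 CPM in other Cd3e-positive cells. Mapk14 gave 2, 5 and 2 UMIs, too few to compare.

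For the transcriptome as a whole, a gene was taken as different when its CPM ratio was at least 2-fold and it had 50 or more UMIs over both libraries. In p38i 45 of 795 such genes were higher than in vehicle (5.66%) and 22 lower (2.77%), 8.43% in all, so 67.2% of them were higher. Median-ratio scaling, which moved the median of all genes by -0.10 on the log2 scale, gave 37 and 33, or 52.9%. Without γδ T cells that had myeloid transcripts the numbers were 18 and 17, and without those that held α-β transcripts 20 were higher and 21 lower, so the excess of higher genes was lost. Both contrasts below use the same vehicle cells and are not independent of each other.

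Trat1, an adaptor of the T cell receptor complex, had 51 UMIs in 9 γδ T cells of p38i, each led by type 1 genes, and 0 in vehicle (at least 18.2-fold higher). Rgcc was at 354 CPM against 20.7 CPM in vehicle, and Lmna (nuclear lamin) at 428 CPM against 41.4. In other Cd3e-positive cells the log2 ratio was 0.69 for Trat1, 1.30 for Rgcc and 0.09 for Lmna. Of 4 interferon response genes with enough counts all 4 were at least 2-fold higher, among them Igtp at 310 CPM against 145 in 20 and 11 cells, and Bst2 and Ifi27l2a with 56.4% and 69.9% of their UMIs in 1 cell. Gbp2b gave a log2 ratio of 3.03 (1.96 to 4.30) and Irf8 2.71, the latter with 51.2% from 1 cell. Of the type 1 associated genes 3 of 6 were higher, Cd7 at 1114 CPM against 214 in 16 and 8 cells, Ly6c2 and Tyrobp. S100a9 and S100a8 were higher by 4.07 and 3.47, with 58.0% and 56.1% of their p38i UMIs in 1 cell, and they were also higher in other Cd3e-positive cells by 1.29 and 1.38. In this library 1 cell thus carried most of the S100a8 and S100a9 UMIs.

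Lower in p38i were Bcl2a1b (44.3 against 324 CPM, log2 -2.87), the hair keratin gene Krt83 (66.4 against 359 CPM, -2.43), Cd163l1, the regulator of chemokine signalling Rgs1 (-1.93), Klf6 (-1.82), Cd69 (-1.60), Fgl2 (-1.60) and Ccr2 (-1.60). These genes were picked for an interval of the ratio below 0, so that interval is no added support. Rgs1 and Cd69 were lower in other Cd3e-positive cells too, by log2 values of -1.61 and -1.53, whereas Bcl2a1b (0.06), Krt83 (0.75) and Ccr2 (-0.12) were not. Of 10 type 17 associated genes 3 were lower by at least 2-fold, Maf at 310 against 732 CPM, Ltb4r1 at 148 against 338 and Serpinb1a at 111 against 283. The classes were unevenly represented, with 6 of 29 cells led by type 17 genes in p38i and 9 of 24 in vehicle, and within those cells Maf was at 1400.2 CPM against 1057 and the sum of the type 17 associated genes at 9607 against 7926 CPM. In the cells led by type 1 genes both were lower in p38i, Maf at 19.6 CPM against 442 and the sum at 1874 against 4549 CPM.

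In p38KO 41 of 653 genes were higher than in vehicle (6.28%) and 41 lower (6.28%), 12.6% in all. Median-ratio scaling, with a median shift of -0.14, gave 35 and 53, or 39.8% higher, and leaving out γδ T cells with myeloid transcripts gave 12 and 26. The largest ratios were of antigen presentation and macrophage genes held almost wholly by 1 cell. Cd74 had 98.6% of its 509 UMIs in 1 cell, Apoe 98.1% of 481, H2-Aa 98.0% of 200, H2-Ab1 95.6% of 136, C1qb 94.9% of 78 and Ctss 89.1% of 64. Rsad2 likewise had 64 UMIs in 2 cells, 98.4% of them in 1. Those sums describe 1 cell and not the γδ T cells of that library. S100a9 and S100a8 were higher by 4.31 and 2.64, with 38.3% and 39.8% from 1 cell, while in other Cd3e-positive cells they were lower by 0.46 and 0.51 on the log2 scale. Genes higher in several cells were 5830411N06Rik, Cd7 (609 against 214 CPM, 12 and 8 cells) and Igtp (386 against 145 CPM). Igtp and Ifi27l2a were 2 of the 4 interferon response genes with enough counts, and these 4 were at least 2-fold higher, Rsad2 almost wholly through 1 cell, while 48.6% of the Ifi27l2a UMIs came from 1 cell. In other Cd3e-positive cells Ifi27l2a was at 1503 CPM in p38KO against 952 in vehicle, and the 15 interferon response genes summed to 3110 against 2319 CPM.

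Lower in p38KO were Cd163l1, Krt83 (71.1 against 359 CPM, log2 -2.34), the protease Furin (-1.79), Zfp36l2 (-1.74), Gimap6 (-1.69), Ccl5 (619 against 1995 CPM, -1.69), Ogt (-1.65) and Gimap3 (-1.60). Zfp36l2 and Ccl5 were lower in other Cd3e-positive cells as well, by -1.30 and -1.18, and Furin (0.75), Ogt (0.09) and Gimap6 (-0.17) were not lower to that extent. Of 8 genes of glycolysis and hypoxia 5 were at least 2-fold lower, with a list median of -1.003 beside -0.08 for all genes. Pgk1 was at 213 against 532 CPM, Pkm at 376 against 794, Tpi1 at 213 against 428, Pgam1 at 183 against 373 and Hif1a at 173 against 345. In other Cd3e-positive cells these 5 were lower by 0.12 to 0.53 on the log2 scale. In p38i 1 of 9 such genes was at least 2-fold lower, Hif1a, at 170 against 345 CPM. Cell cycle transcripts were sparse throughout, with Mki67 in 1, 0 and 1 γδ T cells.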

How the data were processed

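Live CD45+ cells of 3 libraries (vehicle, p38i and p38KO, each a pool of 3 tumors) were analysed. The authors deposited unnormalized UMI counts per gene and barcode whose headers name Cell Ranger 6.0.0. The submitters' notes name mm10, R 4.2.1 and Seurat 5, and the annotation release is not given in the sources used here. These were Cell Ranger's filtered matrices with no further cell filter, and cells of 1500 or more UMIs and 300 or more genes, with up to 20% of counts mitochondrial, were kept here. The 69 γδ T cells gave 98501 to 144839 UMIs per library, which sets the precision. No doublet caller was run. γδ T cells with Trac and a Trbc gene, Cd4 or Cd8b1, and those with 4 or more of 10 myeloid markers, were left out as alternatives, the second chosen after the data were seen.

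Counts were summed per library and cell group and fitted with edgeR 4.0.16 (R 4.3.3; TMM, filterByExpr, quasi-likelihood test, Benjamini-Hochberg adjustment over all genes tested) with the library as a block, since both cell groups of a library come from the same mice. Genes of the gates, and of the class lists in the class comparison, are given with no test. Between libraries, CPM ratios carry exact conditional binomial 95% intervals and shares exact Clopper-Pearson intervals, both covering counting error only, with 0.5 standing in for a count of 0 and 3 counts over a group as the floor. Median-ratio scaling, a mean over cells, a count minimum of 20, thinning to 1500 UMIs (random seed 1), DESeq2 1.42.0, no low-count filter and no block were tried. On simulated data with γδ T cells against other Cd3e-positive cells (9478 genes), the fit recovered 51.0% of tested genes changed by 2 on the log2 scale and 71.3% of those changed by 3. Python 3.11.15, numpy 2.4.6, scipy 1.17.1, pandas 2.3.3 and matplotlib 3.10.9 were used. Sequences and positions come from GENCODE M21 on GRCm38.

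Named genes were those of the gate, of 27 lists, the 12 per direction with the largest fold in each edgeR comparison (adjusted p under 0.05, the same direction in each library, at least 60 counts), and the 8 per direction between libraries (at least 50 counts, an interval without 0, a UMI in at least 20% of γδ T cells of the higher library). The last pair of rules passed over gate, mitochondrial and ribosomal genes and symbols of the Gm or Rik kind. Trdv4, Cd163l1 and 5830411N06Rik were singled out after their values were seen. No per-sample column of another series was present. The gate and lists were chosen with earlier results of these data known. Some genes of the lists are not reported here.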

Additional observations from a re-analysis of the deposited data

How the results depend on the processing

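No named call changed sign in any setting where it had a value, but the order of some numbers and shares changed. Type 17 against type 1 genes led 8 and 7 cells in p38KO but 5 and 6 without cells with α-β transcripts. They led 6 and 6 after thinning and 7 and 7 with at least 3 genes. Thinning put Cd163l1 at 6.90% in p38i and 12.5% in p38KO (24.1% and 12.5% at own depth). It put Trdv4 at 16.7% in vehicle and 17.2% in p38i (50% and 31.0% at own depth). Without cells with α-β transcripts 20 genes were higher and 21 lower in p38i against vehicle (45 and 22 in the main setting). Against other Cd3e-positive cells (38 higher, 86 lower), the counts of higher and lower genes were 81 and 187 with no low-count filter, 25 and 31 with no replicate block, 95 and 332 without cells with myeloid transcripts, and 34 and 35 by DESeq2's Wald test. Without cells with α-β transcripts 138 were lower. Leaving out each library gave 14 to 69 higher and 23 to 115 lower. Against NK cells (92 and 92), the counts were 149 and 239 with no filter, 39 lower by the Wald test, 170 and 261 without cells with myeloid transcripts, 61 higher without cells with α-β transcripts, 62 to 125 higher and 45 to 111 lower with a library left out. Between the classes (10 and 16), they were 22 and 82 with no filter, 4 higher with no block, 2 and 3 without cells with α-β transcripts, 9 to 19 higher and 16 to 22 lower with a library left out. The pairing comes from the design, each library giving both cell groups. Of the named calls, no block ended 35 of 67 against other Cd3e-positive cells, 15 of 68 against NK cells and 6 of 19 between the classes, and the Wald test 28, 15 and 7. Against other Cd3e-positive cells both settings ended, among others, those for Cd69, Itgb7, Ramp1, Tnfrsf9 and Tnfsf11, no block alone those for Cd28, Gzma, Ccl3, Ccl1, Cd8b1, Lag3 and others, and the Wald test alone those for Lck, Csf1, Birc5 and Gpm6b. Against NK cells, of the calls that held with each library left out, no block ended those for Gzmd, Cma1, Ly6a and Xcl1, and the Wald test those for Gzmd and Itgax.

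The share of γδ T cells was 0.393% in vehicle and 0.501% in p38i when the gate was applied after thinning, and 0.419% and 0.459% without cells with α-β transcripts (0.628% and 0.605% in the main setting). The share led by type 17 genes in p38i was 3.45% after thinning. Against vehicle, a count minimum of 20 gave 248 higher and 102 lower in p38i and 139 and 143 in p38KO. Without cells with myeloid transcripts 18 were higher in p38i, and 12 higher and 26 lower in p38KO. The causes were not tested. The numbers of γδ T cells limit every value here, and detection of a gene at 1 UMI depends on depth.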
